A study of Mus musculus with 12 samples.

Results

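The enzymes that process filaggrin and crosslink the cornified envelope were described in healing mouse skin. They are the 10 genes Casp14, Asprv1, Tgm1, Tgm3, Tgm5, Prss8, St14, Hal, Padi1 and Padi3, taken by symbol from the 55487 genes of each deposited table, and all 10 were found. Full-thickness wounds were made with a 6 mm punch on the back of male C57BL/6JNarl mice, 6 weeks old, with 2 wounds per mouse. Wounds received 200 µL of 25% Pluronic F127 gel alone (P-F127, the sham group) or the same gel with 10 µM capsaicin (CAP), once daily, and RNA of the wound with its surrounding skin was sequenced at Day 3 and Day 6. There were 3 libraries in each of 4 groups, named here P-F127 Day 3, CAP Day 3, P-F127 Day 6 and CAP Day 6. The sham wounds carry the gel as well, so the gel is common to all groups, and no unwounded or ungelled skin was analysed here. Sham and CAP mice were separate animals, and wounds were collected after euthanasia at each day, so libraries of different groups come from different mice. It is not known whether libraries of the same group share a mouse, so each n is a number of libraries. The p-values measure the spread between libraries.

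Profilaggrin is stored in keratohyalin granules of the granular layer and is cut into filaggrin as keratinocytes die into corneocytes. Filaggrin binds keratin filaments, is deiminated on its arginines, and is then broken down to free amino acids, among them histidine, which is turned into urocanic acid. In parallel, transglutaminases join loricrin, involucrin and small proline-rich proteins by isopeptide bonds into the cornified envelope, and these steps are known as the last stage of epidermal barrier formation.

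The promoters of the members were taken from RefSeq on GRCm38.p6, as the 250 bases before each annotated transcript start, and 8 of the 10 members matched. Prss8 and St14 are named only. The sequences shown belong to the 4 members with the smallest p at Day 6 and to Padi3, which lies next to Padi1 on chromosome 4 with 2334 bases between the gene bodies and on the same strand, and which had the opposite sign at Day 6. Each is read 5′ to 3′ on the gene strand, and capitals mark matches to a searched motif.
Casp14, chr10:78718294-78718543, minus strand: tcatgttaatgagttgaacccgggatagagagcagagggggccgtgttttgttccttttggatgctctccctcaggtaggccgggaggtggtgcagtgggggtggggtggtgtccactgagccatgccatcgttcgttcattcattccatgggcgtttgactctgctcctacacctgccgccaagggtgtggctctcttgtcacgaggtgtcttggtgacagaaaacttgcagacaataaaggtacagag
Asprv1, chr6:86627924-86628173, plus strand: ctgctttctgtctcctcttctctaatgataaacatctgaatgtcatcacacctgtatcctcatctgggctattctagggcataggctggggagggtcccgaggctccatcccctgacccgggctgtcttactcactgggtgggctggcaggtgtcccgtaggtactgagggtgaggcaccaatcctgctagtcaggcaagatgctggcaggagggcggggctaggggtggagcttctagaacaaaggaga
Hal, chr10:93488518-93488767, plus strand: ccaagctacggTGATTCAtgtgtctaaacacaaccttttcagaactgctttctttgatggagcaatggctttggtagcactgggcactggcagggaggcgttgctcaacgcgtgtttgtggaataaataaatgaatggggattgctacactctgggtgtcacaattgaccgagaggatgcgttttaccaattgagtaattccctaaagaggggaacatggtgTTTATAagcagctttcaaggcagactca
Padi1, chr4:140845779-140846028, minus strand: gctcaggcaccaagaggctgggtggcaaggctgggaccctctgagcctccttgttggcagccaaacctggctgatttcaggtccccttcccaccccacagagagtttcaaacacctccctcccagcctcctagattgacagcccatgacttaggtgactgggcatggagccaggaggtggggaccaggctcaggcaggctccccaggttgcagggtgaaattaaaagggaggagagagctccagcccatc
Padi3, chr4:140810649-140810898, minus strand: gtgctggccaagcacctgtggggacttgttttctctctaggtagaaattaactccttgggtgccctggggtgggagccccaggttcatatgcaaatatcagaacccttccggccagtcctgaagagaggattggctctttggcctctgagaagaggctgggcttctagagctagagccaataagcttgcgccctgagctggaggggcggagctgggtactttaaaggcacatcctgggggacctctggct

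The motifs searched on both strands were the AP-1 letters TGANTCA, the Grainyhead-like letters AACCNGTT, the TATA box as TATAAA, and the GATA site as AGATAA, and no match overlapped another. The Hal promoter held TGATTCA at 239 to 233 bases before the start, and TATAAA on the opposite strand, read as TTTATA, at 28 to 23 bases before it. The other match was TATAAA in Tgm3, also at 28 to 23 bases before the start. That RefSeq start of Tgm3 lies upstream of its gene start in the GENCODE M21 annotation. Of 32851 promoters of this length, 6.75% held the AP-1 letters, 1.79% the Grainyhead-like letters, 12.4% TATAAA and 9.99% AGATAA. The matches are descriptions of these windows.

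Expression is given as TPM, a measure of transcript abundance scaled by gene length and library total, a scale on which levels can be compared between genes per length. Over the 12 libraries the highest mean level was that of Asprv1, at 1406 TPM, followed by Casp14 at 328 TPM. Asprv1 encodes SASPase, the retroviral-like aspartic protease that cuts the linkers of profilaggrin, and Casp14 encodes the caspase of cornifying keratinocytes. Hal (166 TPM) and Tgm1 (162 TPM) did not separate in level, since Hal was above Tgm1 in 5 of 12 libraries. St14, Tgm3, Prss8 and Tgm5 followed at 53.0, 45.8, 37.2 and 33.9 TPM. The deiminases were far lower, with mean levels of 1.49 TPM for Padi1 and 0.651 TPM for Padi3. The ratio of the highest to the lowest library was smallest for St14, at 2.29, and largest for Padi1, at 11.6.

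**Figure D1:**
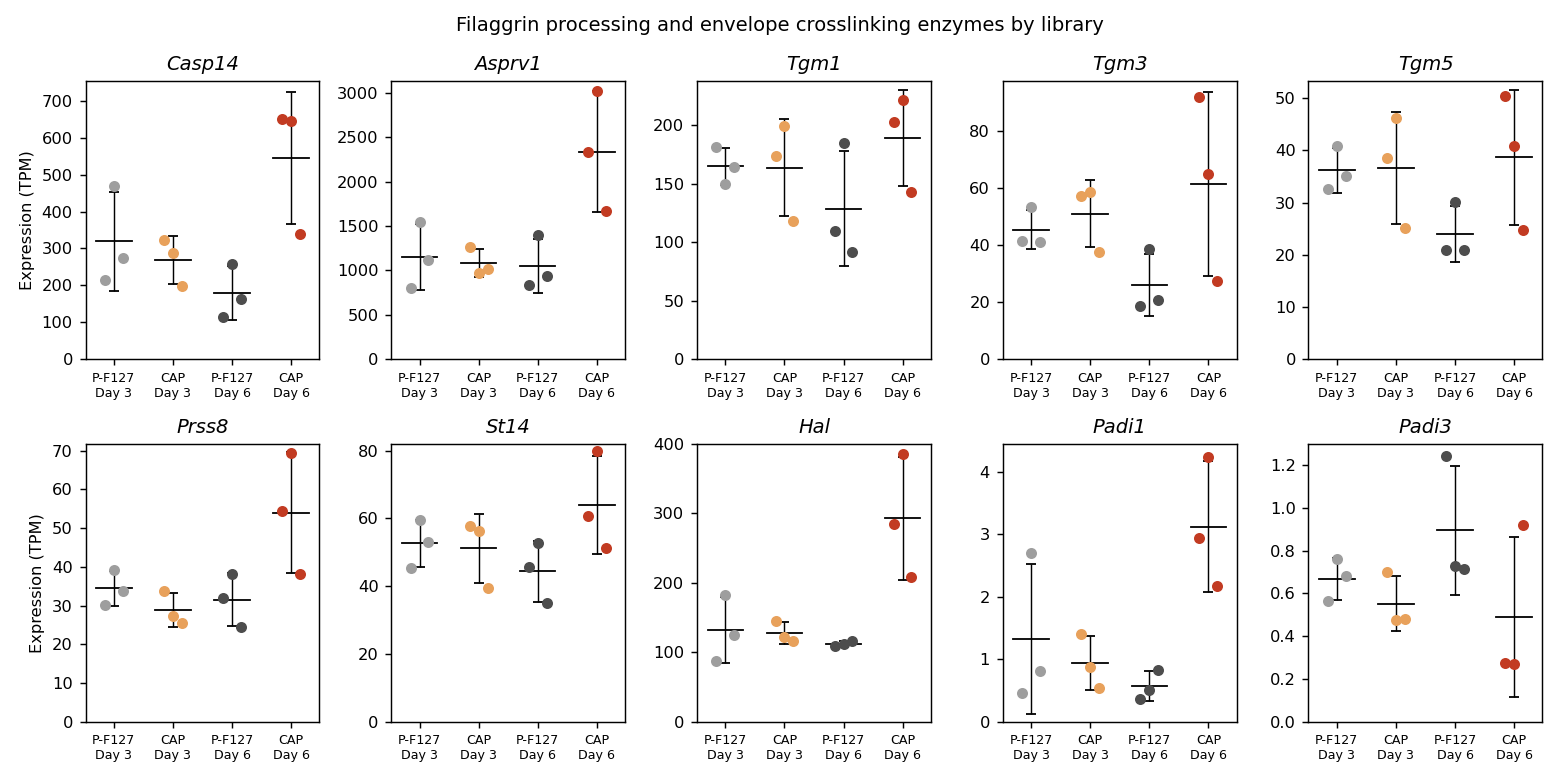
Expression of the 10 enzymes in TPM on the y axis (each panel from 0) in the 3 libraries of each of 4 groups on the x axis. Points are libraries, horizontal bars are group means and error bars are SD over 3 libraries; for Casp14, Asprv1, Prss8, Hal and Padi1 the CAP Day 6 points lie above every P-F127 Day 6 point.

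Libraries of a group correlated across genes at Pearson's r of 0.956 to 0.975, and 18533 to 19325 genes reached 0.3 TPM per library. The lowest of these correlations was between CAP Day 6 replicates 2 and 3. CAP Day 6 replicate 2 stood apart, with the fewest genes at 0.3 TPM and the highest levels of the suprabasal keratins Krt1 and Krt10, and calls lost without it are named as such. TPM carries no read number, so depth is unknown. In tissue RNA, fewer keratinocytes and less RNA per keratinocyte cannot be told apart. A member was called higher or lower where limma on log2(TPM + 0.1) gave an unadjusted p under 0.05 and the difference was at least 2-fold. All 10 members reached a mean of 0.3 TPM in every group and were tested in each comparison. The comparisons share libraries with one another.

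At Day 3 none of the enzymes was called between CAP-treated and sham wounds. The count was 0 of 10, against 0.426% of 18330 genes called higher and 1.16% called lower, and limma gave 0 members and 6.60% of all genes at an unadjusted p under 0.05. The log2 differences (CAP minus P-F127) ran from -0.26 for Prss8, with a standard error of 0.15, to 0.15 for Tgm3, with a standard error of 0.20. Their median was -0.05, and that of all genes was -0.05. No member separated the 3 CAP Day 3 from the 3 P-F127 Day 3 libraries, where 2.86% of genes lay wholly higher and 8.75% wholly lower. Padi1 had the widest spread at this day, with 0.466, 2.69 and 0.815 TPM in P-F127 Day 3, so that its standard error of 0.63 leaves room for a difference of 2-fold in either direction.

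At Day 6 the filaggrin enzymes Casp14, Asprv1, Hal and Padi1 and the transglutaminase Tgm3 were called higher in CAP-treated wounds. That is 5 of 10 members, and 0 were called lower, where 1.46% of 18323 genes were called higher and 2.34% lower. The groups overlapped for Tgm3. Calls of Casp14, Hal and Padi1 were kept in each of 6 fits that left out a library. That of Asprv1 was kept in 4 and that of Tgm3 in 2. Of the members, 7 had an unadjusted p under 0.05 by limma, against 19.2% of all genes in either direction. No gene of the whole table, members included, passed an adjusted p of 0.05 at Day 6 by limma. The members' median log2 difference was 0.95, against -0.12 for all genes. With median-ratio scaling of the TPM, 399 genes were called higher and 287 lower, in place of 268 and 429, the median of all genes was -0.01, and 5 members were again called higher. Without CAP Day 6 replicate 3, the library of that group with the lowest Casp14, Asprv1 and Hal, limma gave 7 of 9 tested members and 1430 genes an adjusted p under 0.05. Without CAP Day 6 replicate 2 and without P-F127 Day 6 replicate 1 the count of members called was 3 in both cases, with 0 genes at an adjusted p under 0.05. In 5 members (Casp14, Asprv1, Prss8, Hal and Padi1) every CAP Day 6 library was above every P-F127 Day 6 library, which held for 8.01% of genes. For each of them the exact two-sided permutation test gave p = 0.1, the smallest that 3 against 3 libraries allow.

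**Figure D2:**
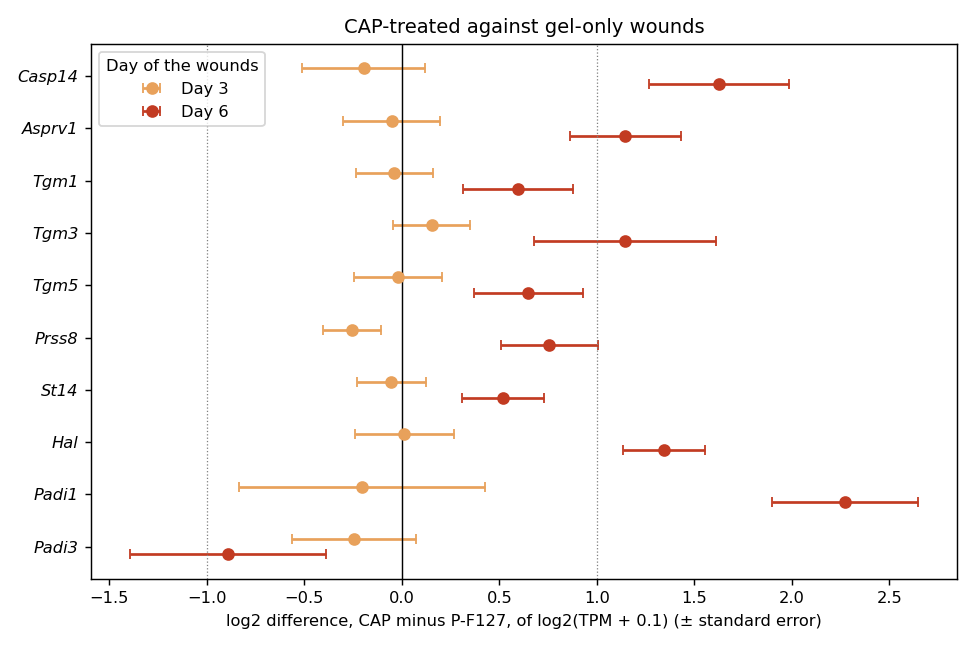
Difference between CAP-treated and P-F127 wounds on the log2(TPM + 0.1) scale (x axis) for each enzyme (y axis), with standard errors from limma, at Day 3 (orange) and Day 6 (red); dotted lines mark a 2-fold difference. The Day 3 points lie between -0.26 and 0.15, and the Day 6 points between -0.89 and 2.27.

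Among the proteases that release filaggrin, Casp14 measured 115, 258 and 162 TPM in P-F127 Day 6 and 650, 645 and 338 TPM in CAP Day 6. All CAP libraries were higher, and the lowest of them was replicate 3. The log2 difference was 1.63 with a standard error of 0.36, or 3.08-fold (limma, unadjusted p = 0.0027, adjusted p = 0.21). Asprv1 measured 829, 1399 and 930 TPM in P-F127 Day 6 and 2328, 3018 and 1662 TPM in CAP Day 6. Again the groups did not overlap and replicate 2 was the highest. The log2 difference of Asprv1 was 1.15 with a standard error of 0.28, or 2.21-fold (limma, unadjusted p = 0.0049, adjusted p = 0.21). Without CAP Day 6 replicate 2 it was 0.94, and without P-F127 Day 6 replicate 1 it was 0.99, in both cases below 2-fold.

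Prss8 and St14 encode the membrane-anchored serine proteases prostasin and matriptase, which act upstream in profilaggrin processing. Prss8 measured 31.9, 38.2 and 24.4 TPM in P-F127 Day 6 and 54.5, 69.2 and 38.2 TPM in CAP Day 6. The lowest CAP library, 38.19 TPM, exceeded the highest sham library, 38.16 TPM, by a margin far below the spread within either group. Its log2 difference of 0.76, with a standard error of 0.25, was under 2-fold (limma, unadjusted p = 0.019, adjusted p = 0.22). St14 measured 45.6, 52.7 and 34.9 TPM in P-F127 Day 6 and 60.7, 79.8 and 51.2 TPM in CAP Day 6, so the groups overlapped. The log2 difference of St14 was 0.52 with a standard error of 0.21 (limma, unadjusted p = 0.042, adjusted p = 0.25). The Prss8 gene body overlaps that of Kat8 on the opposite strand, and the sources do not say whether reads were counted by strand.

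Of the 3 transglutaminases among the members, 1 was called at Day 6. Tgm3, the epidermal transglutaminase that is activated by proteolysis, measured 18.6, 38.4 and 20.8 TPM in P-F127 Day 6 and 91.6, 64.6 and 27.4 TPM in CAP Day 6. The groups overlapped, since CAP replicate 3 was below P-F127 replicate 2. The log2 difference was 1.15 with a standard error of 0.47 (limma, unadjusted p = 0.044, adjusted p = 0.25). The call was lost without any of P-F127 Day 6 replicate 1, P-F127 Day 6 replicate 3, CAP Day 6 replicate 1 and CAP Day 6 replicate 2, with log2 differences of 0.94, 1.03, 0.77 and 1.02. It was also lost without the filter on low values (limma, unadjusted p = 0.062, adjusted p = 0.39). Tgm1, the membrane-anchored enzyme of keratinocytes, measured 110, 185 and 91.8 TPM in P-F127 Day 6 and 203, 222 and 143 TPM in CAP Day 6, and the groups overlapped. Its log2 difference was 0.60 with a standard error of 0.28. Tgm5 measured 20.9, 30.2 and 20.9 TPM against 50.4, 40.8 and 24.7 TPM, with overlap, and its log2 difference was 0.65 with a standard error of 0.28. Neither Tgm1 nor Tgm5 reached an unadjusted p under 0.05 (limma, adjusted p = 0.29 and 0.27).

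Hal encodes histidine ammonia-lyase, which makes urocanic acid from the histidine of degraded filaggrin. It measured 108, 112 and 116 TPM in P-F127 Day 6 and 285, 385 and 208 TPM in CAP Day 6. The 3 sham libraries lay close together and all CAP libraries were above them. The log2 difference was 1.34 with a standard error of 0.21, or 2.54-fold, with the smallest p of the 10 members (limma, unadjusted p = 3.9e-04, adjusted p = 0.21). Across the left-out libraries it stayed between 1.12 and 1.57.

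Padi1 and Padi3 encode peptidylarginine deiminases of the epidermis, of which the latter also acts on trichohyalin in the hair follicle. Padi1 measured 0.366, 0.513 and 0.830 TPM in P-F127 Day 6 and 2.94, 4.24 and 2.18 TPM in CAP Day 6, with no overlap. The log2 difference was 2.27 with a standard error of 0.37, the largest of the members (limma, unadjusted p = 5.0e-04, adjusted p = 0.21). At this level the pseudocount matters, and with 1 TPM in its place the log2 difference of Padi1 was 1.37. Padi3 measured 1.24, 0.728 and 0.714 TPM in P-F127 Day 6 and 0.274, 0.272 and 0.922 TPM in CAP Day 6. CAP replicates 1 and 2 were the lowest of the 12 libraries, whereas replicate 3 lay inside the sham range. The log2 difference of Padi3 was -0.89 with a standard error of 0.50 and was not called (limma, unadjusted p = 0.12, adjusted p = 0.35). Genes of the inner root sheath of the hair follicle summed to 97.7, 15.9 and 30.0 TPM in P-F127 Day 6 and to 10.3, 4.17 and 4.26 TPM in CAP Day 6. Within that list of 8 genes, Tchh, which encodes trichohyalin, was the 1 gene tested at Day 6 and was called lower (log2 difference -1.96), and the keratin gene Krt71 was listed at the placeholder for 0 in P-F127 replicate 2 and in CAP replicates 1 and 2. The part of follicle content in the Padi3 values was not tested.

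In the sham wounds alone, no enzyme was called between Day 3 and Day 6, where 3.75% of genes were called in either direction. The median log2 difference (Day 6 minus Day 3) was -0.34 for the members and 0.00 for all genes. The log2 difference of Tgm3 was -0.86, from 41.5, 53.2 and 41.1 TPM to 18.6, 38.4 and 20.8 TPM, with no call at 2-fold (limma, unadjusted p = 0.014, adjusted p = 0.17). That of Tgm5 was -0.61, from 32.5, 40.9 and 35.0 TPM to 20.9, 30.2 and 20.9 TPM (limma, unadjusted p = 0.0080, adjusted p = 0.13). These were the 2 members whose Day 6 sham libraries all lay below the Day 3 ones, which held for 10.6% of genes. Without P-F127 Day 6 replicate 2, Casp14 (-1.14) and Tgm3 (-1.18) were called lower.

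In the CAP-treated wounds, Asprv1, Hal and Padi1 were called higher at Day 6 than at Day 3, with log2 differences of 1.08, 1.16 and 1.66. That is 3 of 10 members, where 1.27% of genes were called higher. Casp14 (0.98) and Prss8 (0.87) were just under 2-fold. For these 5 members every CAP Day 6 library was above every CAP Day 3 library, which held for 8.05% of genes. The members' median was 0.59, against -0.05 for all genes. The count was 1 without CAP Day 6 replicate 2 and 5 without CAP Day 6 replicate 3. Tgm1, Tgm3 and Tgm5 had differences of 0.22, 0.13 and 0.06 over the same interval, each within its standard error of 0.24 to 0.44.

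The difference between the CAP effects of the 2 days was tested as an interaction over all 12 libraries. It was called higher for Casp14, Asprv1, Prss8, Hal and Padi1, which is 5 of 10 members where 2.18% of 20267 genes were. The log2 values (effect at Day 6 minus effect at Day 3) were 1.82, 1.20, 1.01, 1.33 and 2.48, and each had an adjusted p of 0.43 by limma. For Tgm3 the interaction was 0.99 with a standard error of 0.57, and for Padi3 it was -0.64 with a standard error of 0.58. Neither was called. The count was 3 without P-F127 Day 3 replicate 2 and 3 without CAP Day 6 replicate 2. Casp14, Hal and Padi1 stayed called in each of the 12 fits that left out a library, and Asprv1 in 10 of them. The call of Prss8 was lost in 6 of the 12, with values of 0.81 to 0.98, and also with a pseudocount of 1 TPM (0.99). Averaged over both days, Padi1 was the 1 member called higher with CAP (log2 difference 1.03, standard error 0.39), where 0.205% of genes were called higher. The log2 differences of Padi1 behind this average were -0.20 at Day 3 and 2.27 at Day 6. Over both days 38 genes were called higher and 178 lower, and with median-ratio scaling 51 and 132. That call was lost without any of P-F127 Day 3 replicate 1 or 3, CAP Day 3 replicate 1, P-F127 Day 6 replicate 1 and CAP Day 6 replicate 2, with a count of 0 in each case. Averaged over both treatments, 0 members were called between the days, where 2.18% of genes were.

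The substrates of these enzymes were described from a list of 12 genes. At Day 6, 5 of 11 tested substrates were called higher with CAP and 0 lower, with a median log2 difference of 0.78. They were Flg, which encodes profilaggrin itself, at 4.77-fold, the loricrin gene Lor at 2.71-fold, the filaggrin-like gene Hrnr at 2.47-fold, the involucrin gene Ivl at 2.04-fold and the corneodesmosin gene Cdsn at 2.02-fold. The count was 3 without CAP Day 6 replicate 2, with Flg at 4.26-fold and the calls of Ivl (1.75-fold) and Cdsn (1.76-fold) lost. Over the 6 fits that left out a library, Flg, Lor and Hrnr stayed called in all 6, Ivl in 4 and Cdsn in 3. The small proline-rich genes Sprr1a and Sprr1b had log2 differences of -0.31 and 0.50 and were not called. Of 9 other processing proteases, Klk5 (log2 difference 1.20) and Blmh (1.19), a kallikrein and the bleomycin hydrolase that finishes filaggrin breakdown, were called higher and 0 were called lower. The calpain gene Capn1 had the second smallest p of that list, after Klk5, but a log2 difference of 0.51. Klk5 was below 2-fold (0.95) without CAP Day 6 replicate 2. Of 8 protease inhibitors and protease targets 0 were called, with a median of 0.54, and the smallest p values were those of Scnn1a (0.64), Spink5 (0.63) and Spint2 (0.60). Of 6 tested transglutaminases and deiminases outside the members, 0 were called higher and Tgm2, the widely expressed tissue transglutaminase, was called lower at -1.18. Its levels were 94.1, 97.0 and 82.7 TPM in P-F127 Day 6 and 43.2, 24.3 and 62.0 TPM in CAP Day 6. Its log2 difference was -0.81, and the call was lost, without CAP Day 6 replicate 2, where it was lowest. At Day 3, 0 genes of these 4 lists were called in either direction.

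**Figure D3:**
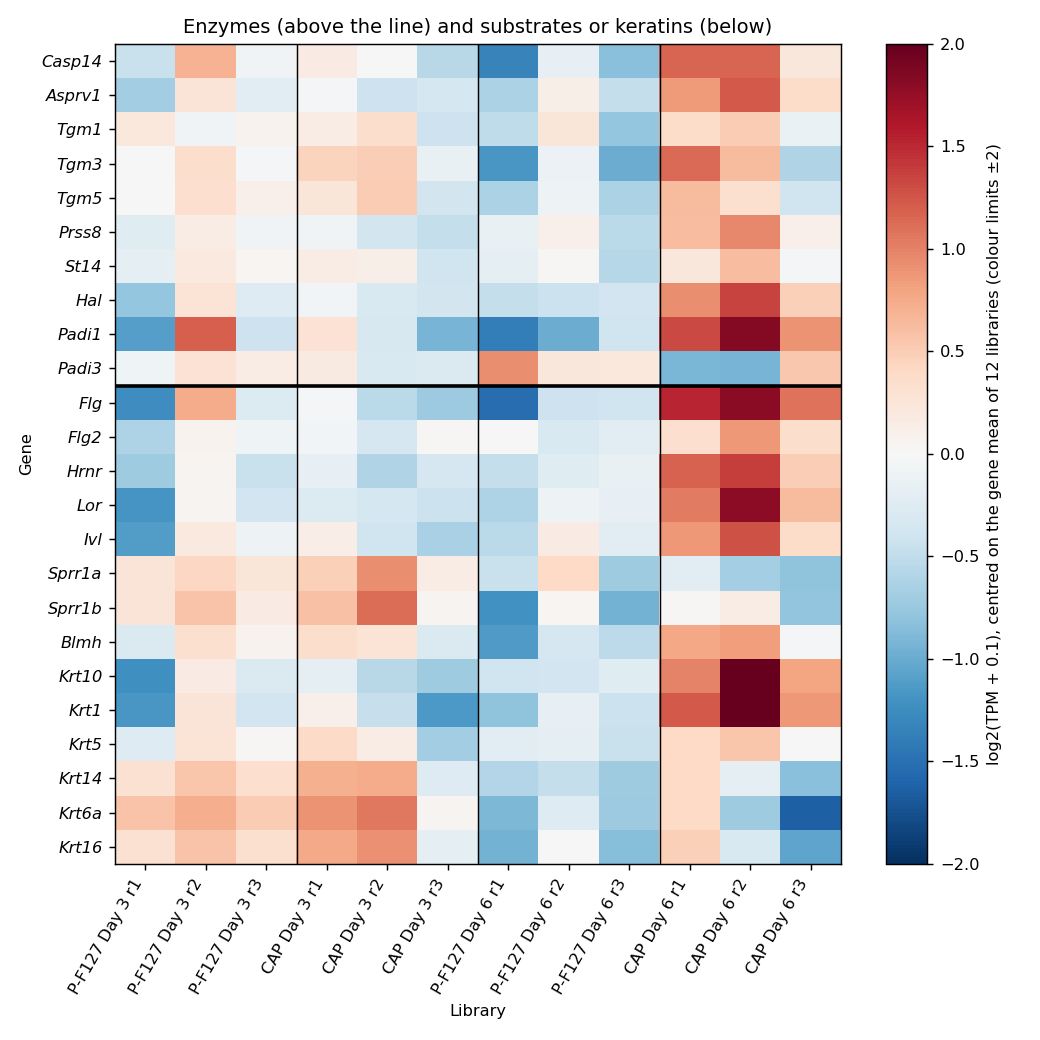
Expression of the 10 enzymes (above the line) and of 14 substrates, proteases and keratins (below) in each of the 12 libraries, as log2(TPM + 0.1) centred on each gene's mean, from blue (-2) to red (2); r stands for replicate. Casp14, Asprv1, Hal, Padi1, Flg, Hrnr, Lor, Krt1 and Krt10 are above their means in all 3 CAP Day 6 libraries, and Padi3 is below its mean in replicates 1 and 2 of that group.

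Among the keratinocyte lists, the suprabasal genes had the highest median log2 difference between CAP-treated and sham wounds at Day 6. All 8 suprabasal genes had an unadjusted p under 0.05 at Day 6, and 4 of them (Krt1, Krt10, Dsc1 and Calml3) were called higher, with a list median of 0.97. The summed level of the 8 genes ranged from 19211 to 23418 TPM in P-F127 Day 6 and from 40849 to 91390 TPM in CAP Day 6. The highest value is that of CAP Day 6 replicate 2, and the next was 49677 TPM. Without that library 7 of the 8 genes had an unadjusted p under 0.05 by limma, Krt1 and Krt10 stayed called, and Dsc1 (0.91) and Calml3 (0.83) did not. Of 10 basal genes, Krt15 was called higher (1.21), with a list median of 0.17. The wound-induced keratin genes, 4 in number, had 0 called and a median of -0.05. Their part in the result was not tested. Outside the epidermis, 3 of 6 endothelial, 2 of 8 macrophage and monocyte and 1 of 7 tested neutrophil genes were called lower, and their summed levels ranged from 233 to 320, from 1689 to 2034 and from 1916 to 3543 TPM in P-F127 Day 6 and from 75.3 to 197, from 828 to 1759 and from 357 to 2759 TPM in CAP Day 6. Without CAP Day 6 replicate 2, the lowest library for all 3 sums, the counts called lower were 0 endothelial, 0 macrophage and monocyte and 1 neutrophil. Of 6 adipocyte genes, Lep, which encodes leptin, was called higher (log2 difference 1.46), with a list median of 0.83. Adipoq and Plin1 were also called higher without CAP Day 6 replicate 2, so that the count was 3. Their summed level ranged from 424 to 779 TPM in P-F127 Day 6 and from 547 to 947 TPM in CAP Day 6. The myosin gene Myh4 was the 1 of 8 skeletal muscle genes called, and it was lower (-1.18). Of the fibroblast, sebaceous, hair shaft and erythroid genes 0 were called at Day 6. The part of these cell types in the result was not tested either.

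Each member was also set against the keratinocyte genes of the same library, by subtracting the mean log2 level of the list. Against the 10 basal genes, the median Day 6 difference of the members was 0.74. Casp14 (1.41), Asprv1 (0.93), Hal (1.13) and Padi1 (2.06) had all CAP libraries above all sham libraries, which held for 3.33% of genes on this scale. Against the 8 suprabasal genes the median was -0.17, and Padi1 (1.15) was the 1 member wholly higher, where 0.109% of genes were. On that scale Asprv1 (0.02), Tgm3 (0.02), Hal (0.22) and Casp14 (0.50) overlapped between the groups. Tgm1 (-0.53), Prss8 (-0.37), St14 (-0.60) and Padi3 (-2.01) lay wholly lower, where 82.2% of genes did. Without CAP Day 6 replicate 2 the medians were 0.52 and -0.12. The members that lay wholly higher or lower against each list were the same, with Padi1 at 1.15 against the suprabasal genes. At Day 3 the medians were 0.02 and -0.06 against the basal and suprabasal lists.

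**Figure D4:**
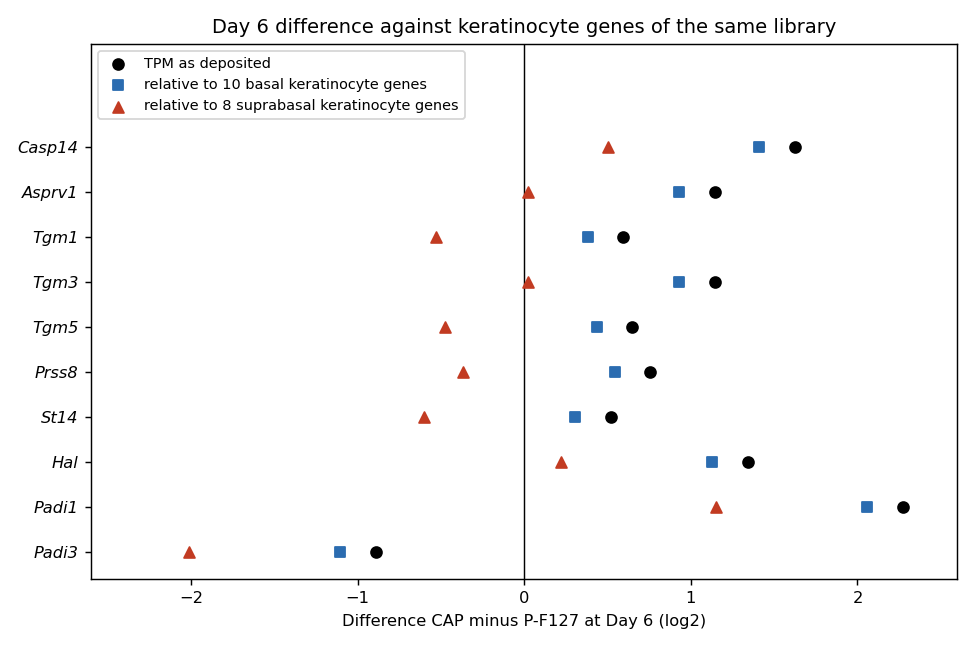
Day 6 difference between CAP-treated and P-F127 wounds (x axis, log2) for each enzyme (y axis), on TPM as deposited (circles) and after subtracting the mean log2 level of 10 basal (squares) or 8 suprabasal (triangles) keratinocyte genes of the same library. Padi1 is at 1.15 against the suprabasal genes, whereas Asprv1 and Tgm3 are at 0.02.

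Ratios of the RNA levels of enzyme and partner genes were computed within each library, for pairs chosen after the values were seen. They are given with no test, and the protein of these genes was not measured here. The ratio of Asprv1 to Flg was 3.09, 2.41 and 1.59 in P-F127 Day 6 and 1.05, 1.12 and 1.01 in CAP Day 6. All CAP libraries were lower and lay closer together than the sham libraries. Flg itself was 4.77-fold higher in CAP Day 6, against a median log2 difference of -0.12 for all genes. A gene that did not change would thus also have a lower ratio to Flg. The share of all genes with a wholly lower ratio was not computed. The ratio of Hal to Flg was 0.404, 0.192 and 0.198 against 0.128, 0.142 and 0.127. The ratio of Casp14 to Flg was 0.429, 0.445 and 0.277 against 0.291, 0.239 and 0.206, with overlap. Padi1 differed from these, since its mean ratio to Flg was 0.00122 ± 0.000295 (SD, n = 3) in P-F127 Day 6 and 0.00140 ± 0.000143 (SD, n = 3) in CAP Day 6. For the envelope, the ratio of Tgm1 to Lor was 0.0820, 0.0959 and 0.0498 in P-F127 Day 6 and 0.0482, 0.0313 and 0.0450 in CAP Day 6. Lor itself was 2.71-fold higher in CAP Day 6. The ratio of Tgm3 to Lor was 0.0139, 0.0199 and 0.0113 against 0.0217, 0.00911 and 0.00862, with overlap. Between the neighbouring deiminases, the ratio of Padi1 to Padi3 was 0.295, 0.705 and 1.16 in P-F127 Day 6 and 10.7, 15.6 and 2.36 in CAP Day 6. St14 exceeded Prss8 in every Day 6 library, with ratios of 1.43, 1.38 and 1.43 in P-F127 and 1.11, 1.15 and 1.34 in CAP.

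**Figure D5:**
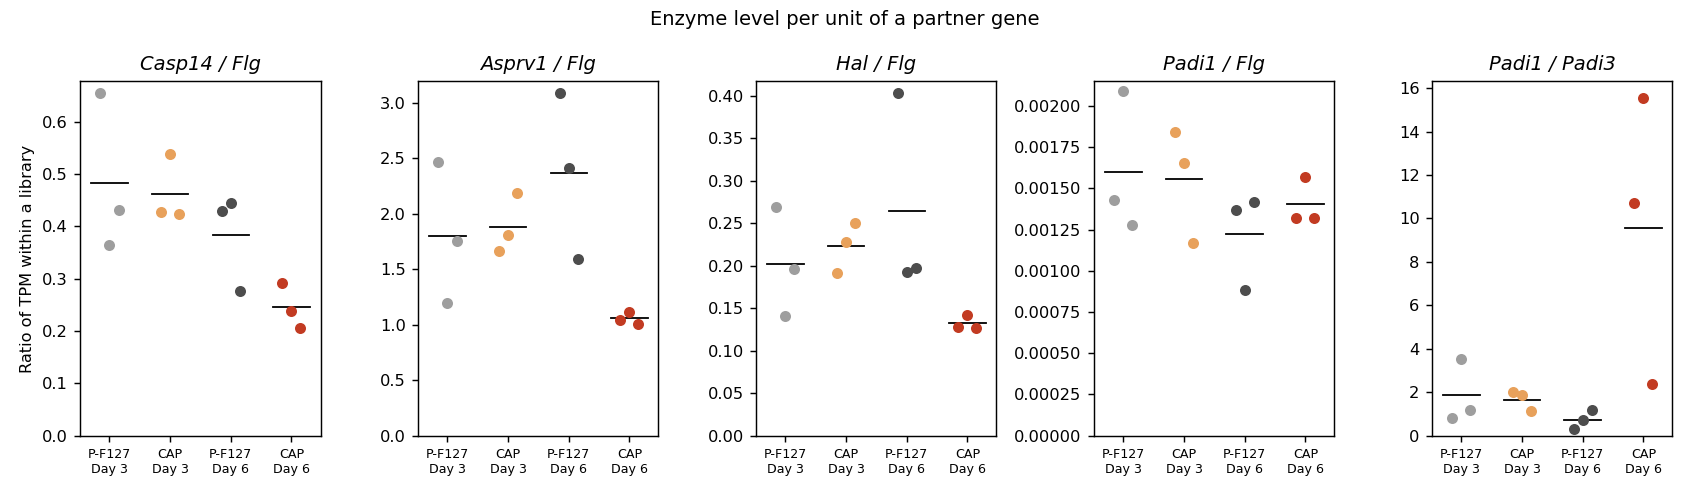
Ratio of TPM values within a library (y axis, from 0) for 5 gene pairs in the 4 groups (x axis); points are libraries and horizontal bars are means of 3. The ratio of Asprv1 to Flg is lowest in the CAP Day 6 libraries, where Flg itself was 4.77-fold higher than in P-F127 Day 6. That of Hal to Flg has its lowest mean there but overlaps with P-F127 Day 3. The ratio of Padi1 to Flg overlaps between groups, and that of Padi1 to Padi3 reaches 15.6 in CAP Day 6.

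The genes with the most similar profiles were sought for the members among 16169 genes whose mean reached 1 TPM, by the root mean square difference of centred log2 values over the 12 libraries. The closest to Asprv1 was Kprp at 0.11, the closest to Hal was Ctnnbip1 at 0.11 and the closest to Padi1 was Flg at 0.27. For Tgm1 the closest was Cnfn at 0.12, for Tgm3 Gm6551 at 0.21 and for Tgm5 Ttc22 at 0.10. For St14 it was Llgl2 at 0.05, for Prss8 Gm49654 at 0.13 and for Casp14 Otop3 at 0.22. The next genes in the same order were Xkrx, Rps6ka6, Slc6a19, Cblc, Teddm3, Atp6v0a4, Cep170b, Epcam and Gm6557. Among the members, Asprv1 and Hal were the closest pair at 0.18. A distance scales with how much the member itself varied, and the SD of a member's profile ranged from 0.30 for St14 to 1.03 for Padi1. Distances of different members are therefore not comparable as degrees of likeness. All points share the same 12 libraries, so these distances are descriptions.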

How the data were processed

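RNA of 12 wound libraries, 3 in each group of treatment and day, was sequenced by the authors as paired-end reads, with bcl2fastq and Trimmomatic 0.36 named in the submitters' processing notes together with build mm10. The authors estimated expression with StringTie 2.1.4 and deposited TPM for 55487 genes per library, in which 0.0001 stands in place of 0. TPM carries no depth. GENCODE M21 held 55141 of the identifiers.

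Differences were computed on log2(TPM + 0.1), which understates changes of low genes. Testing was by limma 3.58.1 (R 4.3.3, intensity trend) on every gene whose mean reached 0.3 TPM in both groups (for the interaction, in at least 1 of 4), with Benjamini-Hochberg adjustment over the whole tested table. In all, 7 comparisons were made, of which 3 used a joint fit of the 4 groups. A call needed an unadjusted p under 0.05 and a 2-fold difference, the threshold of the study. Exact permutation tests over 3 against 3 libraries were 2-sided. Other steps used numpy 2.4.6, pandas 2.3.3 and matplotlib 3.10.9 under Python 3.11.15. The fit was tested on simulated data.

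The members and lists were chosen with earlier results of these data known. Named were the 10 members, list genes past the threshold or among the 3 smallest p, and for each member the 2 genes nearest in profile. The genes nearest to Padi3 are not reported here. Members' coordinates matched M21. Gene bodies of Tgm1, Tgm3, Tgm5, Prss8, St14 and Padi1 overlap a gene on the other strand, and for the aligner and the use of strand the sources give nothing. Alternatives were pseudocounts of 1 and 0.01 TPM, other filters, median-ratio scaling, a replicate block, a joint fit, and leaving out each library. For the list genes, leaving out libraries and the joint fit were added after seeing the data.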

Additional observations from a re-analysis of the deposited data

Results flagged for a closer look

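The difference between the CAP effects of the 2 days was called for 5 enzymes by the interaction test over all 12 libraries (limma, unadjusted p under 0.05 and at least 2-fold). The effect at Day 6 minus the effect at Day 3, on the log2 scale, was 1.82 for Casp14, 1.20 for Asprv1, 1.01 for Prss8, 1.33 for Hal and 2.48 for Padi1. Standard errors were 0.53, 0.40, 0.31, 0.36 and 0.78, and the adjusted p of each was 0.43. Across the left-out libraries the values ranged from 1.50 to 2.13 for Casp14, from 0.96 to 1.44 for Asprv1, from 0.81 to 1.24 for Prss8, from 1.07 to 1.59 for Hal and from 1.83 to 2.98 for Padi1. Of the 12 fits that left out a library, the call of Prss8 was kept in 6 and that of Asprv1 in 10. Groups of 3 libraries were too small for a test of single outlying libraries.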

How the results depend on the processing

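Of 1053 alternative values for single members, 974 kept their direction and side of the threshold, 24 lost and 11 gained a call, and 44 changed sign, all of the last for differences that were not called. Counts of members called were within 1.5 times the reported ones except as follows. Averaged over both days, the count of 1 was 0 with a pseudocount of 1 TPM, where Padi1 was at 0.60. With each library left out, the count called higher ranged from 3 to 5 at Day 6, from 0 to 1 over both days, from 1 to 5 between the days with CAP and from 3 to 6 for the interaction, and the count called lower ranged from 0 to 2 between the days in sham wounds (1 without P-F127 Day 3 replicate 1, 2 without P-F127 Day 6 replicate 2) and from 0 to 1 for the interaction (Padi3 at -1.13 without CAP Day 6 replicate 3). Medians against the keratinocyte lists moved by less than the spread between libraries. The cause of these shifts was not tested.

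Signs changed for small values. With median-ratio scaling, Day 3 values became 0.0068 for Asprv1, 0.0195 for Tgm1, 0.0394 for Tgm5 and 0.0056 for St14, and with 0.01 TPM the difference of Padi3 between the days over both treatments became -0.0067. With each library left out, CAP effects at Day 3 ranged from -0.29 to 0.18 for Asprv1, from -0.45 to 0.12 for Casp14, from -0.25 to 0.28 for Hal, from -0.70 to 0.45 for Padi1, from -0.16 to 0.12 for St14, from -0.20 to 0.18 for Tgm1 and from -0.21 to 0.23 for Tgm5. Differences between the days in sham wounds ranged from -0.36 to 0.12 for Asprv1, from -0.43 to 0.0921 for Hal and from -0.29 to 0.0284 for Prss8, and with CAP from -0.0024 to 0.41 for Tgm1, from -0.25 to 0.62 for Tgm3 and from -0.19 to 0.35 for Tgm5. Over both treatments they ranged from -0.0792 to 0.23 for Casp14, from -0.22 to 0.14 for Padi3, from -0.0573 to 0.11 for St14 and from -0.25 to 0.0048 for Tgm1.

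The correlation of deviations was over 0.1 in 2 of 18 same-numbered pairs and in 3 of 36 pairs of different number. The medians were 0.03 and -0.02. Sham and CAP wounds were on separate mice, and mice were euthanized at each day, so replicate numbers do not pair libraries by mouse. Whether the numbers mark any other shared step cannot be decided from these correlations. With the replicate block, 5 members were called higher at Day 6 and 5 in the interaction, and 1 passed an adjusted p of 0.05 between the days in sham wounds. The block moved the genes at an adjusted p under 0.05 from 0 to 255 for CAP over both days and from 239 to 552 between the days over both treatments. With 1 library left out of a group of 3, the fit assumes that the others vary alike. Depth is not carried by TPM, and 3 libraries per group limit the precision.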

Other observations

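Among the substrates, the same interaction test called Flg (2.42), Hrnr (1.31) and Lor (1.29) higher and Sprr3 (-1.84) lower. That is 3 higher and 1 lower of 12 tested, where 2.18% of 20267 genes were called higher and 2.73% lower. Sprr3 did not reach a mean of 0.3 TPM in CAP Day 6 and entered this test through the groups where it was higher. The call of Sprr3 therefore rests in part on that entry and is not read as a result. Among the other processing proteases Blmh (1.11) and Klk5 (1.09) were called higher and the lysosomal proteases Ctsd (-1.34) and Lgmn (-1.01) lower. Tgm2 was called lower at -1.39. Of the suprabasal keratinocyte genes, Krt1 (1.93), Krt10 (1.65) and Calml3 (1.24) were called higher. None of these passed an adjusted p of 0.05 by limma. Of the 12 fits that left out a library, Flg, Hrnr, Tgm2, Krt1 and Krt10 stayed called in all 12, Lor and Calml3 in 11, Klk5 in 9, Blmh in 7, Ctsd in 6, and Sprr3 and Lgmn in 4.

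Between Day 3 and Day 6 the wound-induced keratin genes Krt6a and Krt6b were called lower in sham wounds, with log2 differences of -1.23 and -1.42 (limma, adjusted p = 0.033 and 0.024), whereas 0 of the 10 enzymes were called there. Both stayed called in each of the 6 fits that left out a library, but passed an adjusted p of 0.05 in 2 of them, and in the joint fit of 12 libraries the adjusted p was 0.295 and 0.26. Over all genes the count at an adjusted p under 0.05 in this comparison was 420, against 0 in the joint fit and 1 without P-F127 Day 3 replicate 3. In CAP-treated wounds Krt6a (-1.32), Krt6b (-1.55) and Krt17 (-1.20) were called lower over the same interval, and Flg (1.91), Hrnr (1.39), Lor (1.50) and Ivl (1.14) higher. Each of the 3 keratin calls with CAP was kept in 2 of 6 fits that left out a library. With CAP, Flg, Hrnr and Lor stayed called in all 6 of these fits and Ivl in 4. Sprr3 was called lower in sham wounds at -2.99 and Sprr1b at -1.04 (limma, adjusted p = 0.037 and 0.16). In CAP-treated wounds Sprr1a was called lower at -1.09 (limma, adjusted p = 0.29). Over the fits that left out a library, the call of Sprr3 was kept in 5 of 5, with an adjusted p under 0.05 in 0 of them. That of Sprr1b was kept in 3 of 6 and that of Sprr1a in 4 of 6.

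Hemoglobin and other erythroid genes, 5 in number, were called higher with CAP at Day 3, with a median log2 difference of 2.11, while 0 enzymes were called. Their summed level ranged from 514 to 753 TPM in P-F127 Day 3 and from 2357 to 2803 TPM in CAP Day 3. At Day 6, 0 of these 5 genes were called, with a median of -1.12. The part of erythroid RNA in the enzyme values was not tested.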
